A study of Caenorhabditis elegans with 14 samples.

Results

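Cuticle collagens form the largest structural gene family of the nematode exoskeleton. The epidermis secretes them as procollagens, which are hydroxylated, trimerised, trimmed and crosslinked into a layered matrix. A new cuticle is made before each larval molt and at the passage to the adult, and many collagen genes are transcribed in short pulses at these times. Mutants of single collagens are known for short (Dpy), helically twisted (Rol, Sqt), long (Lon) or blistered (Bli) bodies. Array elements were taken as cuticle collagens when their gene symbol began with col- or was a named Bli, Dpy, Rol, Sqt or Lon collagen. This gave 170 elements for 156 genes among the 22490 gene elements of the array. Of these, 168 were found by the symbol of the platform annotation, and both elements of rol-8 by the name of its coding sequence. No element of dpy-10 was found. The genes lie on all 6 chromosomes, with 19 on I, 30 on II, 11 on III, 41 on IV, 30 on V and 25 on X in the WBcel235 annotation.

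RNA of 2 wild type strains of Caenorhabditis elegans, the laboratory strain N2 and the Hawaiian strain CB4856, was hybridised together on 14 arrays with 2 dyes. Hermaphrodites were grown at 24 °C and harvested at 40 hr (t1, juvenile worms, 5 arrays), 96 hr (t2, reproductive worms, 4 arrays) and 214 hr (t3, old worms, 5 arrays). The sample labels call the t1 worms late L3 larvae and the methods of the study call them late L4, so the larval stage of the t1 samples is uncertain. N2 carried Cy3 on replicates 1 to 3 and Cy5 on replicates 4 and 5. The sample labels number replicates 4 and 5 as 1 and 2 of the opposite dye order. Where dye exchanges are averaged below, arrays of the same age and label number were averaged. Worms of t2 and t3, of both strains, had spent a period on FUDR, which blocks reproduction, and worms of t1 had not, so that age and FUDR cannot be told apart between t1 and t2. Each sample pooled whole worms of several dishes. Whether arrays of opposite dyes share an RNA extract is not given in the sources used here, and p-values treat arrays as independent. Fewer epidermal cells and less RNA per cell cannot be told apart in such samples.

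Levels are normalised log2 intensities averaged over both dyes of an array, and strain differences are log2 ratios of CB4856 over N2. Levels are compared between ages for one element at a time, not between elements. Calls were made in limma where the p, adjusted by Benjamini-Hochberg across all 22490 elements, was under 0.05. An element was taken as above background in a channel when its mean intensity exceeded the median local background by 2 SD. Between 68.8% and 74.1% of collagen elements were above background per channel in juvenile worms, 38.8% to 64.1% in reproductive worms and 42.4% to 67.6% in old worms, and 24 elements were so in no channel at any age. Probes of closely similar collagens may share signal, and 11 genes had more than 1 element.

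Most collagen RNAs fell sharply between juvenile and reproductive age. Of the 170 elements, 95 (91 genes) fell from t1 to t2, against 15.4% of all elements, and 14 rose, against 18.5% of all elements. The median log2 change of the collagen elements was -1.52, while that of all elements was 0.02. Among the called falls, the fitted change was over 2-fold for 88 elements and over 8-fold for 59. The shares of all elements with falls of these sizes were not counted. Elements without signal above background at t2 are included in both counts. The levels at t1 and t2 did not overlap for 111 of the 170 elements (65.3%), against 31.5% of all elements. The median change within each of the 4 scan sessions lay between -1.30 and -1.58. For 19 of the falling elements no channel was above background at t2, so that only lower bounds are given by their falls, from 1.02-fold to 13.4-fold. These bounds set the mean t1 level, without background correction, against the higher of each t2 array's own level and its lowest signal above background. Another 2, col-177 and col-56, which were picked out after their values were seen, were above background at neither age.

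From reproductive to old age fewer collagen elements fell. From t2 to t3, 41 elements (40 genes) fell, against 10.4% of all elements, and 2 rose, against 9.4% of all elements. The median log2 change was -0.04 and that of all elements 0.01. At t2, 57 collagen elements were above background in no channel, where a further fall could hardly be measured. Without replicate 2 of t2 the collagen median was 0.02. Without normalization between arrays, 28 fell and 7 rose, against 30.96% of all elements called in either direction (19.8% with it). The median was then 0.13 for the collagen elements and 0.29 for all elements. Within the 3 scan sessions that held both ages, the median change was -0.12, 0.07 and -0.27.

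**Figure D1:**
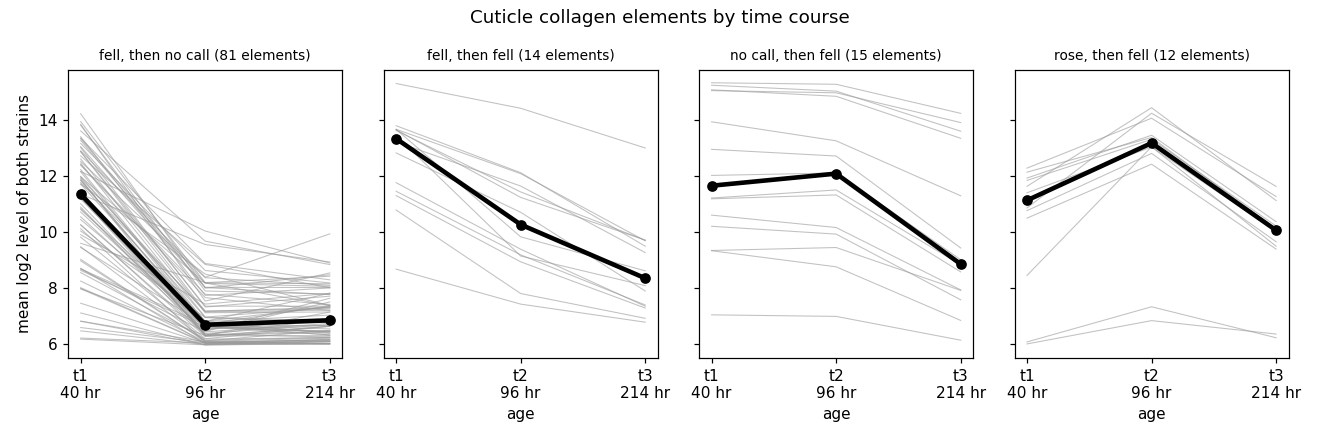
Mean log2 level of both strains at t1, t2 and t3 for the collagen elements of the 4 main time courses, with 1 grey line per element and the median in black. The 81 elements of the first panel drop at t2 with no call afterwards, and the 12 of the last panel peak at t2.

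Combining both calls gave the time courses. The largest set, 81 elements or 47.6% of the collagens, fell from t1 to t2 with no call afterwards, a course shown by 10.2% of all elements. A further 14 fell at both steps (8.24%, against 2.18% of all elements), 15 fell from t2 to t3 only (8.82%, against 4.45%), and 12 rose and then fell (7.06%, against 3.79%). Another 2, col-158 and col-183, rose with no later call, 2 rose only from t2 to t3, and 44 had no call at either step. The median level of these 44 was 6.03 to 6.10 on every array, against 6.76 for all elements. With so little signal, a missing call need not mean a steady level. No collagen element fell and then rose, which 2.99% of all elements did, and none rose at both steps, which 2.09% of all elements did.

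**Figure D2:**
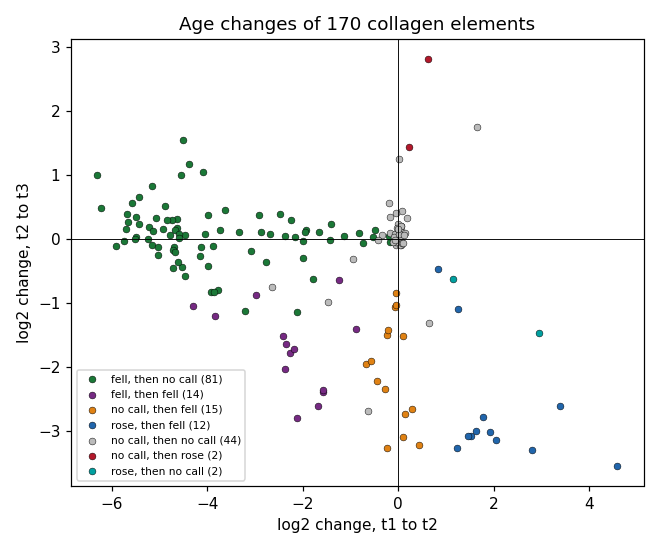
Log2 change from t1 to t2 (horizontal) and from t2 to t3 (vertical) of each of the 170 collagen elements, coloured by time course, with the number of elements in the key. Most elements lie left of 0 and near 0 on the vertical axis, and the group that rose and then fell sits in the lower right.

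Most blister and body-shape collagens were among those that fell from t1 to t2. The level of bli-1, a collagen of the adult struts that hold the cuticle layers together, was 11.46, 11.38, 11.17, 11.27 and 11.46 on the 5 t1 arrays. At t2 it was 6.18 to 7.10 on the 4 arrays, and at t3 6.54, 6.51, 6.35, 6.21 and 6.70. The t1 arrays thus lay far above all others, with a log2 change of -4.71 ± 0.15 (SE, adjusted p = 6.7e-10, n = 5 and 4 arrays, limma). The change of bli-2, its partner in the struts, was -4.68 ± 0.16 (adjusted p = 7.8e-10, limma).

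The furrow collagens are deposited in the circumferential grooves of the cuticle, and dpy-2, dpy-3, dpy-7 and dpy-8 belong to this group. Levels of dpy-7 were 10.21, 10.45, 10.56, 9.58 and 10.51 at t1, and 5.95, 6.61, 6.11 and 6.40 at t2. They were 6.36, 6.33, 8.47, 6.40 and 5.68 at t3. All t1 arrays exceeded all later ones, and replicate 3 stood above the other t3 arrays. The log2 change from t1 to t2 was -3.99 for dpy-7, -4.08 for dpy-2, -2.91 for dpy-3 and -3.88 for dpy-8. No t2 channel of dpy-3 was above background, and its fall was at least 3.20-fold. For dpy-9 the change was -2.98, followed by a call of -0.88 ± 0.28 (adjusted p = 0.043, limma) from t2 to t3, which was lost on leaving out any of 8 arrays in turn (replicate 2 of t1, replicates 2, 3 and 4 of t2, and replicates 1, 3, 4 and 5 of t3).

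The collagens dpy-4, dpy-5 and dpy-13, whose mutants are short, had log2 changes of -5.02, -3.87 and -5.14 from t1 to t2, all called. The Rol and Sqt collagens fell likewise, with -4.47 for rol-6, -5.51 for sqt-1, -2.36 for sqt-2 and -4.51 for sqt-3, and lon-3, whose loss lengthens the body, had -4.70. Of these, sqt-2 alone was called again from t2 to t3 (-1.65 ± 0.29, adjusted p = 0.0016, limma). For rol-8, one element fell by 4.67, while the other had a change of -1.47 ± 1.17 without a call (adjusted p = 0.40, limma), and its level was 15.25 on replicate 3 of t3 against 7.64 to 10.95 on the other t3 arrays.

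A pair of body-shape collagens did not share this fall. The level of dpy-14 had a median of 6.04 on the 5 t1 arrays, where no channel was above background. It was 6.71, 7.12, 6.12 and 6.78 at t2, and 8.76, 8.40, 12.51, 9.62 and 8.19 at t3. At t2 and t3, 2 and 10 channels were above background. All t3 arrays exceeded all t2 arrays, with replicate 3 the highest, and the log2 change was 2.81 ± 0.68 (adjusted p = 0.011, limma). Without replicate 3 of t3 it was 2.06. The level of dpy-17, which acts together with sqt-3, was 6.47 to 6.97 at t1, 7.94 to 8.84 at t2, and 8.69 to 12.88 at t3. Its changes of 1.65 ± 0.62 and 1.74 ± 0.62 were not called (adjusted p = 0.056 and 0.067, limma).

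Replicate 3 of t3 stood apart for several body-shape collagens. It read 12.92 for sqt-3, where the other t3 arrays gave 8.50 to 9.91, and 9.24 for dpy-2, where the others gave 6.75 to 7.47. The 59 elements of other cuticle and molting genes had a mean level of 7.24 on this array and 6.46 to 6.75 on the other t3 arrays, and the 27 epidermal structure elements had 7.65 against 7.11 to 7.41. Their part in the collagen values was not tested.

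**Figure D3:**
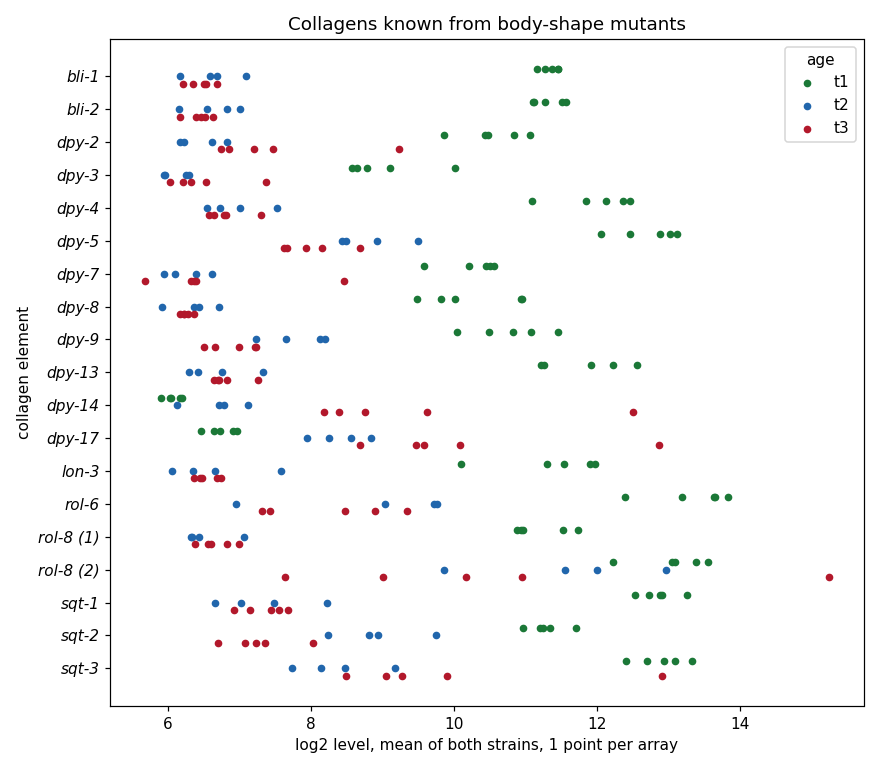
Log2 level, mean of both strains, of the collagens known from body-shape mutants, with 1 point per array (5 at t1, 4 at t2, 5 at t3). The t1 points lie above the t2 and t3 points for most genes, while those of dpy-14 and dpy-17 lie below, and replicate 3 forms the isolated t3 point of sqt-3 at 12.92.

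The largest falls from t1 to t2 were those of col-117, col-12, col-176 and col-39, at -6.30, -6.22, -5.91 and -5.74 on the log2 scale. The level of col-12 was 14.45, 14.49, 13.94, 14.42 and 13.78 in juvenile worms. It was 7.58, 9.40, 6.47 and 8.55 in reproductive worms and 7.99 to 8.86 in old worms. All t1 arrays lay above all later arrays, and replicate 2 was the highest of t2. Over the 81 elements of this course the median level on that array was 7.10, and 6.33 to 6.63 on the other t2 arrays. The change of col-117 came from 1 of its 3 elements, and the other 2 had changes between 0.06 and 0.08 without a call. The larval marker col-17 fell by 5.44 from t1 levels of 11.22 to 12.84 to t2 levels of 6.29 to 7.41.

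Both elements of col-13 fell, yet by unequal amounts. One went from 12.34 to 13.65 at t1 to 6.36 to 8.32 at t2, a change of -5.69 with no later call. The other went from 13.21 to 14.55 to 11.49 to 12.35, a change of -1.68, and then by -2.62 to levels of 8.52 to 10.33. The gene lies next to col-12 in gene order, and a signal of related collagens at either probe was not tested.

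A group of 12 elements was highest in reproductive worms. It held col-101, col-143, col-45, col-119, col-8, col-106, col-181, col-122, col-178, col-140, col-43 and col-116. The level of col-101 was 9.76, 8.11, 7.64, 9.37 and 7.37 at t1 and rose to 13.11, 12.94, 13.08 and 13.02 at t2. In old worms it was 9.12, 10.07, 8.45, 10.18 and 9.64. Its t2 arrays lay above all others and close together, with log2 changes of 4.59 ± 0.48 (adjusted p = 8.6e-06, limma) and then -3.55 ± 0.48 (adjusted p = 0.00024, limma). The rises of col-143 and col-45 were 3.38 and 2.80, and their later changes -2.61 and -3.31. Up to 29.9% of the pixels of col-143 were saturated at t2. The rise of col-140, 1.24 ± 0.41 (adjusted p = 0.032, limma), was lost on leaving out any of 6 arrays in turn, which were replicates 2, 3 and 5 of t1 and replicates 1, 2 and 3 of t2, while its later change of -3.27 was kept in all these fits. For col-43, col-116 and col-183 no t1 channel was above background, and their rises were at least 1.44-fold, 1.16-fold and 1.34-fold.

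The adult marker col-19 belonged to the 15 elements that fell only from t2 to t3. Its level was 12.63, 11.36, 10.63, 12.56 and 11.06 in juvenile worms. Reproductive worms gave 12.26, 12.08, 12.15 and 11.83, and old worms 9.02, 9.10, 9.04, 9.31 and 7.80. The t1 and t2 arrays overlapped, with a change of 0.43 ± 0.41 (adjusted p = 0.50, limma), and all t3 arrays were lower, with a change of -3.23 ± 0.41 (adjusted p = 0.00015, limma). The change of col-159 on one element was -3.28 (adjusted p = 3.3e-06, limma), and its other element fell at both steps. For col-186, picked out after its values were seen, no t3 channel was above background, and its fall was at least 1.29-fold. Up to 50.7% of the pixels of col-155 and 46.7% of those of col-157 were saturated at t1. Saturation occurred on 11 collagen elements in all and sets a ceiling on their measured levels.

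Besides dpy-14, col-121 alone rose from t2 to t3. It was above background in no channel at t1 or t2 and in 10 at t3, where its level was 7.31, 6.98, 9.13, 7.47 and 7.99 and where the highest t2 array was below the lowest t3 array. The log2 change was 1.44 ± 0.34, and the rise was at least 1.68-fold (adjusted p = 0.0092, limma).

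Several well-known collagens gave little or no signal. No channel was above background at any age for col-10, nor for 1 of the 2 elements of col-99, a transmembrane collagen. The dauer collagens col-2 and col-40 were above background in 1 channel each, both on t3 arrays. The other element of col-99 read 12.42 on replicate 5 of t3 and 5.87 to 6.10 on the other t3 arrays. No element of col-6 was found.

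The t1 arrays differed among themselves in the collagens that were highest at t2. The median level of the 12 elements that rose and then fell was 12.06 on replicate 1 and 11.97 on replicate 4, and 10.32 to 10.84 on the other t1 arrays. Replicates 1 and 4 share a label number, in opposite dye order. The 11 yolk elements, which mark the adult intestine, had mean levels of 12.12 and 11.90 on the same arrays and 10.65 to 10.98 on the others. The median strain ratio of these collagens was -0.23, -3.31, 1.47, 1.04 and -0.90 on replicates 1 to 5. For the yolk elements the mean ratio was -0.17, -2.78, 0.90, 1.18 and -0.68, so that both sets were lowest on replicate 2 and above 0 on replicates 3 and 4. Neither set was called between strains at t1. The 81 collagen elements that fell with no later call had t1 medians of 10.97 to 11.48 on the 5 arrays. The part of the differences marked by the yolk elements in the t1 collagen values was not tested.

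**Figure D4:**
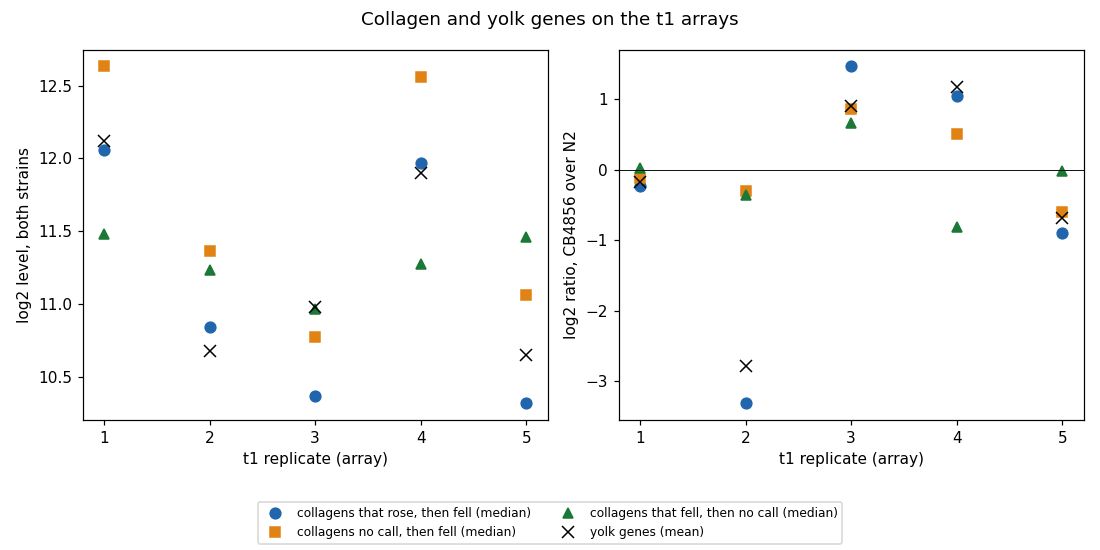
Log2 level of both strains (left) and log2 ratio of CB4856 over N2 (right) on the 5 t1 arrays for the medians of 3 collagen groups and the mean of the yolk elements. The collagens that rose and then fell lie with the yolk elements on each array, high in level on replicates 1 and 4 and lowest in ratio on replicate 2.

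Juvenile and reproductive worms of both strains gave few called differences in collagen levels. At t1, 1 element was higher in CB4856, against 0.636% of all elements, and 0 were lower, against 1.28% of all elements. This was col-182, with log2 ratios from 1.17 to 3.46 on the 5 arrays, the lowest on replicate 4 and all above 0, a median of 2.18, and a difference of 2.19 ± 0.33 (adjusted p = 0.0022, limma). At an unadjusted p under 0.05, 4 were higher and 5 lower, against 5.31% and 5.84% of all elements. Leaving out replicate 3 of t1 gave 7 called elements, of which 6 were lower in CB4856, against 2.34% of all elements in either direction. At t2, 0 elements were called in limma, against 1.51% of all elements in either direction, while 3 were higher and 9 lower at an unadjusted p under 0.05, against 4.38% and 6.39% of all elements. With the replicate number as a block, 1 was higher and 3 lower at t2, and the linear model of the methods gave 2 calls. The shares of all elements called in these fits were 2.02% and 2.10%.

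In old worms more collagen elements were called higher than lower in CB4856, and 146 of 170 were not called. At t3, 23 elements of 22 genes were higher, against 2.44% of all elements, and col-183 was lower, against 3.75% of all elements. The median log2 difference was 0.35 over the 170 elements and 0.00 over all elements. The collagen median was 0.53 without replicate 1 of t3, 0.22 without replicate 3 of t3, and 0.17 with dye exchanges averaged. Of the 23 higher elements, 21 had ratios above 0 on all 5 arrays, and 19 had their highest ratio on replicate 2. The count was 15 without replicate 2 of t3, 12 without replicate 5, and 10 with dye exchanges averaged. It was 0 when only the t3 arrays were fitted, which leaves the spread to be estimated from 5 arrays. Muscle and intestine elements moved the same way at t3, with 7 of 19 and 3 of 11 higher in CB4856 and none lower. Other lists did not: of 32 collagen processing and 9 seam cell elements none was called. Of 27 epidermal structure elements 1 was higher, of 59 other cuticle and molting elements 1 was higher and 1 lower, and of 33 collagen regulators 1 was lower. No oocyte and eggshell, sperm or yolk element was called. The part of muscle and intestine in the collagen values was not tested.

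The largest of these differences was that of col-129, with ratios of 0.97, 3.47, 1.29, 1.49 and 3.01 on the 5 arrays and a difference of 2.10 ± 0.54 (adjusted p = 0.037, limma). All arrays lay above 0, but the call was lost on leaving out any of 6 arrays in turn (replicate 1 of t1, replicates 3 and 4 of t2, and replicates 2, 4 and 5 of t3). For col-17 the ratios were 1.02, 4.04, 0.42, 1.81 and 2.05, all above 0 with replicate 2 far the highest, and the difference of 1.84 ± 0.42 (adjusted p = 0.023, limma) was lost without replicate 2, 4 or 5. The difference of col-142 was 1.86 ± 0.42, with replicate 5 at -0.24, and was lost without replicate 2 or 4. The ratios of col-107 were 1.11, 3.25, 1.17, 1.44 and 1.95, with a difference of 1.78 ± 0.29 (adjusted p = 0.0028, limma). Its call was kept in every fit that left out 1 array. It was lost under 4 other alternatives, which were only spots of flag code 3, dye exchanges averaged, the adjusted linear model of the methods, and only the t3 arrays. In the adjusted linear model, with only the t3 arrays, and at an adjusted p under 0.01, col-129, col-17 and col-142 also lost their calls. With dye exchanges averaged, those of col-129 and col-17 were lost too.

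Among the body-shape collagens, rol-6 alone was called between strains at t3, with ratios of 1.19, 3.39, 1.14, 0.75 and 1.59, all above 0. Its difference was 1.57 ± 0.32 (adjusted p = 0.013, limma) and was lost without replicate 5. Other losses of this call came with flag code 3 only, with dye exchanges averaged, and in the linear model of the methods, adjusted or not. The rol-6 call was also lost with only the t3 arrays and at an adjusted p under 0.01. The difference of sqt-1 was 1.54 ± 0.43 (adjusted p = 0.054, limma) and that of col-19 0.70 ± 0.70 (adjusted p = 0.66, limma). The smallest adjusted p was that of col-155, 0.00045, for a difference of 0.88 ± 0.11. Of the 23 higher elements, 14 came from the 81 that fell with no later call and 3 from the 14 that fell at both steps. Another 5 came from the 15 that fell only from t2 to t3, and 1, col-3, from the 44 without an age call. None of the 12 elements that rose and then fell was called, but so few elements cannot set this apart from the 2.44% of all elements called higher. The level of col-183 was lower in CB4856 on all 5 arrays, with ratios of -0.98, -2.45, -0.81, -0.53 and -0.13 (adjusted p = 0.041, limma), and no CB4856 channel was above background at t3, so that N2 was at least 1.41-fold higher. This call was kept on leaving out replicate 2 or 3 of t2 or replicate 3 of t3, and lost on leaving out any other array.

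**Figure D5:**
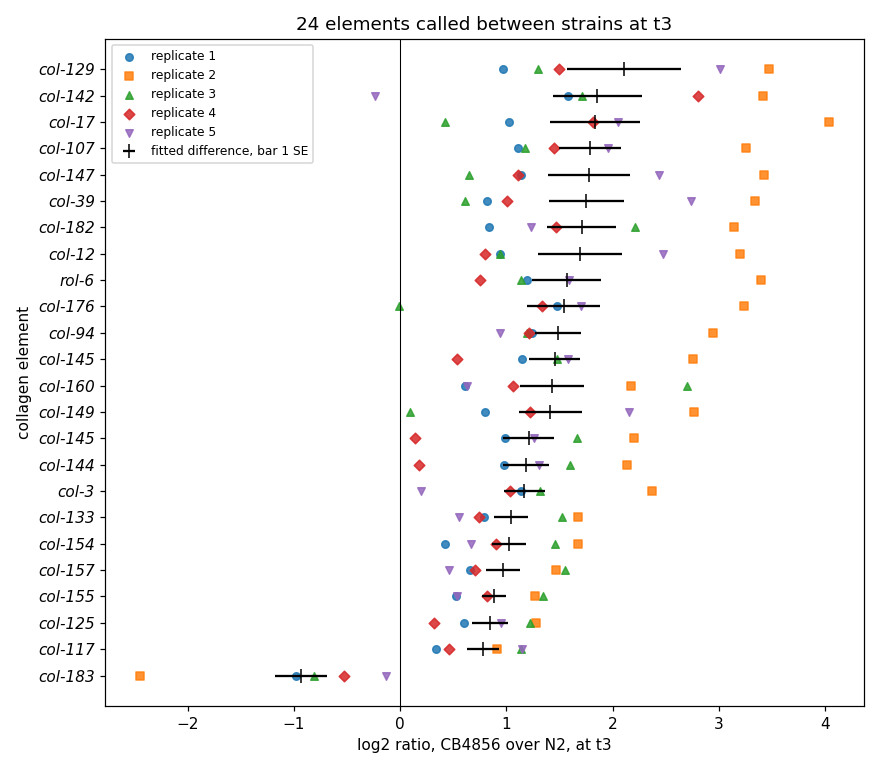
Log2 ratio of CB4856 over N2 on each of the 5 t3 arrays for the 24 collagen elements called between strains, with the fitted difference and a bar of 1 SE. Replicate 2 (squares) gives the highest ratio for 19 of the 23 elements that were higher in CB4856.

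The difference between strains was not shown to change with age. From t1 to t2, 0 collagen elements had a called change of the strain ratio in limma, against 0.382% of all elements, with 1 up and 8 down at an unadjusted p under 0.05, against 3.14% and 3.31% of all elements. From t2 to t3, 0 were called, against 0.116% of all elements, with 33 up and 1 down at an unadjusted p under 0.05, against 3.37% and 3.35% of all elements. The median change was 0.42 against 0.00 for all elements, and 0.20 without replicate 2 of t3. The smallest adjusted p among the elements higher at t3 was 0.064, that of col-125, whose ratio changed by 1.43 ± 0.26. When each strain's age was scaled by its lifespan and single channels were fitted, 5 and 13 elements were called for the 2 steps. The shares of all elements were 1.62% and 0.956%. The contrast of scaled ages weights the changes of both strains unequally, and so departs from 0 for elements with equal falls in both strains.

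Genes that process or accompany collagens were followed as lists, to be read against the shares of all elements given above (18.5% up and 15.4% down at the first step, 9.4% and 10.4% at the second). Of 32 elements of collagen processing genes, 14 fell from t1 to t2 and none rose, among them the peptidyl prolyl isomerases fkb-5 (-3.33 on 1 of its elements) and fkb-4 (-3.08) and the prolyl 4-hydroxylase subunits dpy-18 (-2.34) and phy-2 (-1.93). At the second step 7 fell, of which mlt-7, phy-2 and doxa-1 had also fallen at the first, and none rose. Of 59 elements of other cuticle and molting genes, 21 fell and 1 rose from t1 to t2, with cut-2 at -5.94 and mlt-10 at -4.15. At the second step 9 of them rose and none fell, with sym-1 at 2.09 and lpr-3 at 1.78. Both had fallen by more at the first step, at -4.06 and -4.59. At t2, 34 of the 59 elements were above background in no channel, where a further fall could hardly be measured. Of 33 elements of collagen regulators, 3 rose and 4 fell at the first step, both smaller shares than those of all elements, and 1 rose and 8 fell at the second. Among those that fell were lin-29 (-1.21 at the first step), a factor of the passage to the adult epidermis, and elt-3 (-1.27 at the second), an epidermal GATA factor. The largest fall at the second step was that of an element of lon-1, at -1.49, which had risen at the first step (0.53). Other elements of lon-1 had -1.32 and -1.27 at the second step. At that step 1 element of nhr-23 rose (0.82) and another fell (-0.27), so these counts are of elements and not of genes. Of 27 epidermal structure elements, 8 fell and none rose at the first step, with ajm-1 of the apical junction at -1.57, and of 9 seam cell elements 2 rose and 2 fell.

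Markers of other tissues moved over the same ages. From t1 to t2, 13 of 14 oocyte and eggshell elements and 7 of 11 yolk elements rose and none fell, while 19 of 25 sperm, 16 of 19 muscle and 8 of 11 intestine elements fell and none rose. In old worms 17 of the sperm elements rose, and 9 of the muscle and 8 of the intestine elements fell, each from t2 to t3. One intestine element, that of the protease cpr-1, picked out after its values were seen, rose by 2.43 at this step. Mean muscle levels ranged over the arrays from 11.09 to 11.41 at t1, 9.47 to 10.08 at t2, and 8.42 to 9.08 at t3, without overlap. The part of tissue proportions in the collagen changes was not tested.

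Position said little of the course. In gene order, 19 pairs of collagen genes were direct neighbours among protein-coding genes. In 13 of these pairs each gene had a single course, and 3 pairs shared it (23.1%), while 31.04% of all pairs of placed genes did. Neighbours could differ widely, as col-17 fell from t1 to t2 and col-20 beside it only from t2 to t3.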

How the data were processed

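Both strains were hybridised together on 14 arrays. The deposited spot intensity values are means and local backgrounds of each dye in scanner units, quantified by the authors with ScanArray Express and not normalised. The deposited percent of saturated pixels per spot was used as given. The authors also deposited log2 ratios normalised with limma, which ran as N2 over CB4856 and correlated at -1.00 with ratios recomputed without background correction. They served as an alternative only.

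Processing used limma 3.58.1 in R 4.3.3, and statmod 1.5.0. Steps were normexp correction (offset 50), loess within arrays, and Aquantile normalization between arrays, and 742 control spots were left out. Strain ratios were fitted with age means and a dye term over all 14 arrays, and age changes on mean log2 intensity with age means. The models were tested on simulated data. Intensity limits the precision of each value, and arrays limit that of each test. The collagens and gene lists were chosen with earlier results of these data known. Named are the 4 largest called changes per comparison and direction, the body-shape collagens, and textbook stage markers. Of the lists, up to 4 called genes are named. Gene names came from the platform table and RefSeq (WBcel235). Deviations of arrays of the same replicate number were not correlated alike at all ages. Between t2 and t3 all pairs correlated positively in strain ratio, and between t1 and t3 in both level and strain ratio. The other sets of pairs were mixed in sign. The main fits had no replicate block, and fits with it are given as an alternative. Figures were drawn with matplotlib 3.10.9.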

Additional observations from a re-analysis of the deposited data

Results flagged for a closer look

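Among 230 groups of 4 or 5 arrays of the 44 named elements, in level or in strain ratio, 20 held an array far from the others. Chance alone flags about 1 in 20 such groups, and values near background count among them.

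Replicate 3 of t3 stood apart in level for dpy-7 (8.47), dpy-2 (9.24) and col-2 (7.22). It also stood apart in the log2 ratio of CB4856 over N2, at 3.37 for col-19, 4.07 for col-101, -2.28 for col-158, -2.76 for col-2 and -1.78 for col-40. Replicate 5 of t3 stood apart in level for col-158 (10.34), col-99 (12.42 on 1 of its 2 elements) and col-19 (7.80). Replicate 2 of t3 stood apart in the ratio of lon-3 (2.17) and sqt-2 (1.65), and replicate 4 of t3 in the level of col-176 (8.20).

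At t2, replicate 2 stood apart in the ratio of col-143 (-0.64) and the level of one rol-8 element (7.07), and replicate 3 in the level of one col-13 element (11.49). At t1, replicate 4 stood apart in the ratios of sqt-3 (-1.52) and sqt-1 (-1.65), and replicate 5 in that of col-117 (-0.36).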

How the results depend on the processing

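Percentages in brackets are the shares of all elements called in either direction. From t1 to t2, 109 elements were called (33.9%), 14 up and 95 down. The count was 107 to 111 on leaving out single arrays (30.8% to 35.4%). It was 43 with only spots of flag code 3 (35.9%), where 60 elements could be tested. In the linear model of the methods at its own threshold it was 50 (3.03%). From t2 to t3 the 43 called elements (19.8%) became 42 to 47 on leaving out arrays (14.6% to 22.5%). In the linear model of the methods they became 11 (1.87%). For the strain difference at t3 the 24 called elements (6.18%) became 12 to 28 on leaving out arrays (2.44% to 8.03%). They became 11 with flag code 3 only (2.15%), 10 with dye exchanges averaged (2.20%), and 12 at an adjusted p under 0.01 (2.24%). With only the arrays of that age 0 were called (1.19%). The linear model of the methods after Benjamini-Hochberg adjustment gave 1 (0.889%). The 1 call at t1 (1.92%) became 1 to 7 on leaving out arrays (1.18% to 2.34%) and 6 in the deposited table of log2 ratios (1.62%). It became 2 without background correction (1.30%), with scale normalization (2.21%), or with flag code 3 only (2.12%). Another 2 came with dye exchanges averaged (0.631%), with only the arrays of that age (0.774%), or in the linear model of the methods (2.43%). The 0 calls at t2 (1.51%) became 0 to 2 on leaving out arrays (1.01% to 1.78%) and 3 with scale normalization (2.89%). They became 2 with quantile normalization of both channels (2.64%), dye exchanges averaged (0.756%) or the linear model of the methods (2.10%). They became 1 without the dye term (1.89%), with flag code 3 only (1.51%), or with elements above background in at least 14 of the 28 channels (2.24%). For the change of the strain ratio from t1 to t2, the 0 calls (0.382%) became 13 in the linear model of the methods (2.49%). They became 5 with physiological age (1.62%), and 1 with scale normalization (0.582%), quantile normalization (0.734%) or the deposited table (0.587%). From t2 to t3 they became 15 in the linear model of the methods, 13 with physiological age, 2 with scale normalization, 4 in the deposited table, and 1 with median centring. For both changes 0 were called on leaving out any array (0.160% to 0.414% and 0.0311% to 0.129%). The cause of these shifts was not tested. With the replicate block, 2 elements were called at t1 (2.11%), 4 at t2 (2.02%), and 2 for the change of ratio from t1 to t2 (0.436%). No other count moved by over 1.5 times with this block. Arrays of the same replicate number correlated between ages from -0.05 to 0.28 in level and from -0.17 to 0.33 in strain ratio. All pairs of t1 and t3 were positive, from 0.01 to 0.28 in level and from 0.04 to 0.33 in ratio. All 4 ratio pairs of t2 and t3 lay between 0.23 and 0.29, and the change of ratio between these ages had 0 calls with and without the block. Scale normalization moved the median of all elements to 0.19 from t1 to t2 and to -0.16 from t2 to t3. Of 57 calls of named elements, 0 changed sign and 11 were lost on leaving out some array, 2 of them among the 45 age calls. Under at least 1 of the other alternatives 34 were lost, 26 of them in the linear model of the methods, 12 each with dye exchanges averaged, with only the arrays of the ages compared, and at an adjusted p under 0.01. Quantile normalization and the adjusted linear model were added after seeing the data.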
